A study of Homo sapiens with 74 samples.

Results

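The genes described here belong to families of histone lysine and arginine methyltransferases and lysine demethylases, apart from DOT1L itself. Not every member is known to act on histones, and some histone methylation enzymes have other symbols. Members were taken by gene symbol alone: the KMT2 and KMT5 families, KDM1 to KDM8, SETD and SETDB proteins, EZH1 and EZH2, EHMT1 and EHMT2, NSD1 to NSD3, SUV39H1 and SUV39H2, and PRMT1 to PRMT9. The rule found 55 of the 28131 genes listed in each count table, and 54 remained after 1 Y-linked gene was left out, 36 of them methyltransferases or related proteins and 18 demethylases. The series examines how the DOT1L complex acts in transcription in human leukaemia cell lines. Poly(A) RNA-seq covered 5 groups. K562, an established erythroleukaemic line derived from chronic myeloid leukaemia, was sequenced as wild type cells, as DOT1L-/- cells (DOT1L KO) and as ENL-/- cells (ENL KO). HEL, an established erythroleukaemia line, was sequenced as a control and after DOT1L knockdown (DOT1L KD). The labels say neither how the knockouts and the knockdown were made nor whether a knockout line is 1 clone, and no drug is named for these libraries. They also do not say that replicates came from separate cultures, so the tests measure the spread between libraries, which may be technical.

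DOT1L methylates lysine 79 of histone H3, and ENL, the product of MLLT1, is a reader protein that joins DOT1L to elongation factors. The enzymes examined here set and remove the other main histone methyl marks. KMT2 and SETD1 proteins write H3K4 methylation at promoters and enhancers, and the KDM1 and KDM5 enzymes remove it. SUV39H, EHMT and SETDB enzymes write the repressive H3K9 mark, which KDM3 and KDM4 enzymes remove. EZH1 and EZH2 are the alternative catalytic subunits of Polycomb repressive complex PRC2, which writes H3K27 methylation, and KDM6 enzymes remove that mark. In erythroid cells KDM1A (LSD1) works with GFI1B and CoREST, and the balance of EZH1 and EZH2 is known to shift as blood cells mature.

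The start sites of these genes were read from RefSeq promoter entries (GRCh38.p14), which exist for 51 of the 54 members, using the most upstream start of each gene. None of the 51 windows of 250 bases held TATAAA on either strand, compared with 11.2% of 27305 promoters of the same length and 5.54% of the 10721 promoters of genes tested in K562. The GC box GGGCGG was in 37 of 51 (72.5%), against 42.2% of all promoters and 66.2% of those of tested genes. The ETS motif CCGGAAG was in 7 of 51 (13.7%), against 8.78% and 15.8%. AGATAA, a motif of the erythroid GATA factors, was in 3 (KDM4D, KDM8 and KMT5C; 5.88%), against 9.4% and 5.07%. The median number of CG steps was 25 for members, 10 for all promoters and 20 for promoters of tested genes. Both strands were searched, motifs may share end letters (the GC box on the other strand can run into the ETS motif), and a match is a description of the letters only. The promoters of 5 genes are shown in part, because their genes were among the 10 members with the largest changes in HEL. The 150 bases before their starts also lie outside the exons listed for the same gene in the deposited table. Exons of other listed genes were not checked. Capitals mark GC boxes or the ETS motif on either strand, and each sequence is given 5′ to 3′ on the gene's own strand.
KDM7A, chr7:140176984-140177133, minus strand: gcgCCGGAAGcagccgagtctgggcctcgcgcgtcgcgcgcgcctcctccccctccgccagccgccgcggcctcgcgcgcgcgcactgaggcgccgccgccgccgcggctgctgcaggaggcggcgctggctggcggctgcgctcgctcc
KDM3A, chr2:86441221-86441370, plus strand: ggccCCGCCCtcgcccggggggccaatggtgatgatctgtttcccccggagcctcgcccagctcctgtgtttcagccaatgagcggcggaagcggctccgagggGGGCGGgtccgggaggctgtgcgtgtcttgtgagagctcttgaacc
KDM4B, chr19:4968963-4969112, plus strand: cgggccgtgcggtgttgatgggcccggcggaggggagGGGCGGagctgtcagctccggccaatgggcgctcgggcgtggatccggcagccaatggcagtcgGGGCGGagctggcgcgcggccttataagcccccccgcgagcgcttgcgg
KDM6B, chr17:7834067-7834216, plus strand: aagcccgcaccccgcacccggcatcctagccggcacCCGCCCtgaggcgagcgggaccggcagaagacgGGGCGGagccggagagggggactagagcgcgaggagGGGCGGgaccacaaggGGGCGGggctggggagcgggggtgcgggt
KMT5C, chr19:55339726-55339875, plus strand: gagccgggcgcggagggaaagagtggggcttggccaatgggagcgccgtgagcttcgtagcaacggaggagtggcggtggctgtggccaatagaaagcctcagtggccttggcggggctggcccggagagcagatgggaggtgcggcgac
These windows are 68% to 83.3% G or C. The KDM6B window holds 4 GC boxes and lies before a RefSeq start that is upstream of the first exon in the deposited table. KDM3A and KDM4B hold 2 each, KDM7A holds 1 ETS motif, and the KMT5C window holds none of these letters in this stretch.

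Libraries held 15404944 to 29236703 fragments assigned to genes in K562 and 12151495 to 12811688 reads in HEL. K562 control columns 2 and 3 were identical in every gene and were counted as 1 library, so that K562 has 2 control, 3 DOT1L KO and 3 ENL KO libraries and HEL has 2 control and 2 DOT1L KD libraries. The targeted transcripts were still counted: DOT1L fell by 0.53 on the log2 scale in the DOT1L KO (edgeR quasi-likelihood, adjusted p = 4.09e-06) and by 1.64 in the HEL KD (adjusted p = 2.22e-28), and MLLT1 fell by 0.48 in the ENL KO (adjusted p = 5.26e-06). Since a knockout can leave most of a transcript, these values check the labels only by direction. All 8 erythroid markers read here (among them GATA1, KLF1 and HBG1) were above 1 TPM in every library. Their summed level was 14300 to 15600 TPM in K562 control, 21800 to 23100 in DOT1L KO, 19500 to 19800 in ENL KO, 18700 to 18900 in HEL control and 26000 to 28700 in HEL KD. The 5 megakaryocytic markers summed to 4.67 to 6.52, 23.2 to 23.9, 17.5 to 21.7, 1960 to 2070 and 1520 TPM in the same order. In K562 GP9, GP1BA and PF4 were at or near 0. The erythroid sums were mostly HBG1, HBG2 and HBE1. By edgeR (adjusted p below 0.05), 7 of 8 erythroid markers rose in the DOT1L KO (26.9% of all genes) and 6 in the ENL KO (18.8%). TFRC fell in both. In HEL 6 rose (27%), and GATA1 did not pass (adjusted p = 0.144). The T cell genes CD3D, CD3E and CD3G summed to 231 to 232 TPM in K562 control, 63.8 to 78 in DOT1L KO and 319 to 342 in ENL KO and were at 0 in HEL control. The 3 monocyte genes summed to 56 to 60.5, 511 to 548 and 32.7 to 33.4 TPM in the same K562 groups, nearly all of it LYZ, while CD14 and CSF1R stayed below 1 TPM. Epithelial genes (EPCAM, CDH1 and KRT8) summed to 950 to 966, 808 to 838 and 994 to 1050 TPM in these groups, with CDH1 near 0, and to 16.4 to 16.5 and 26.9 to 32.2 TPM in HEL control and KD. Fibroblast genes (COL1A1 and PDGFRB) summed to 5.04 to 5.53, 50.2 to 52.6 and 5.99 to 6.88 TPM in K562, nearly all COL1A1 in DOT1L KO, and to under 2 TPM in HEL. The endothelial genes PECAM1 and CDH5 summed to 8.19 to 10.6 TPM over all K562 libraries, with CDH5 at 0, and to 105 to 112 in HEL control and 188 in HEL KD, nearly all PECAM1. The B cell marker MS4A1 was at 0. Single genes of these lists moved with the groups compared below, and their part in the members' changes was not tested.

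The arginine methyltransferase PRMT1 was the most abundant member per unit of length in both lines. TPM is the count divided by exonic length and scaled to the same total in each library. In K562 control the median member was at 37.3 TPM, against 23.3 for all genes above 1 TPM, and 50 of 54 members were above 1 TPM. In HEL control the median was 29 TPM against 22.1, with 48 of 54 members above 1 TPM. PRMT1, which deposits most asymmetric dimethylarginine, was at 511 TPM ± 74.7 (SD, n = 2) in K562 control and 287 ± 7.63 (SD, n = 2) in HEL control. PRMT5, the main symmetric arginine methyltransferase, came next in K562 at 273 ± 13.5 TPM, and KMT5A, which monomethylates H4K20, followed at 227 ± 0.884. In HEL the next after PRMT1 were KDM1A at 270 ± 8.92 TPM and KDM3A, an H3K9 demethylase, at 158 ± 0.0919. PRMT5 shares 25.1% of its exonic bases with the antisense gene PRMT5-AS1, and whether counting used strand is not given in the sources used here, so its level may hold reads of both. PRMT8 had no count in any library, and KDM4E had at most 9 counts.

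The 2 lines differed in which enzymes were abundant. Of the 54 members, 18 were at least 2 times higher per length in K562 control and 8 at least 2 times higher in HEL control. SETD7, an enzyme that monomethylates H3K4 and several non-histone proteins, was at 0.883 ± 0.00289 TPM in K562 control and 15.2 ± 1.12 in HEL control (SD, n = 2 each). KDM4C, a demethylase of H3K9 and H3K36, was at 8.64 ± 0.681 against 50.8 ± 1.18 TPM. The opposite held for KDM7A, which removes dimethylation from H3K9 and H3K27, at 14.7 ± 0.397 TPM in K562 and 0.98 ± 0.0174 in HEL. The H3K4 methyltransferase SETD1A was at 84.2 ± 0.384 against 10.7 ± 0.212 TPM, and KMT5A at 227 ± 0.884 against 40.7 ± 0.505. These are descriptions without a test, because the K562 table counts fragments and the HEL table reads, and each was scaled on its own. For SETD6 (19.6 TPM in K562, 0.266 in HEL) and EHMT2 (0.365 TPM in K562, no count in HEL) the counting itself limits the values. SETD6 shares 19.5% of its exonic bases with CNOT1 on the other strand, and the exons of EHMT2 are listed on 7 contigs (chromosome 6 and its alternate versions), where reads with several matches can be lost. EHMT2 is not interpreted further.

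**Figure D1:**
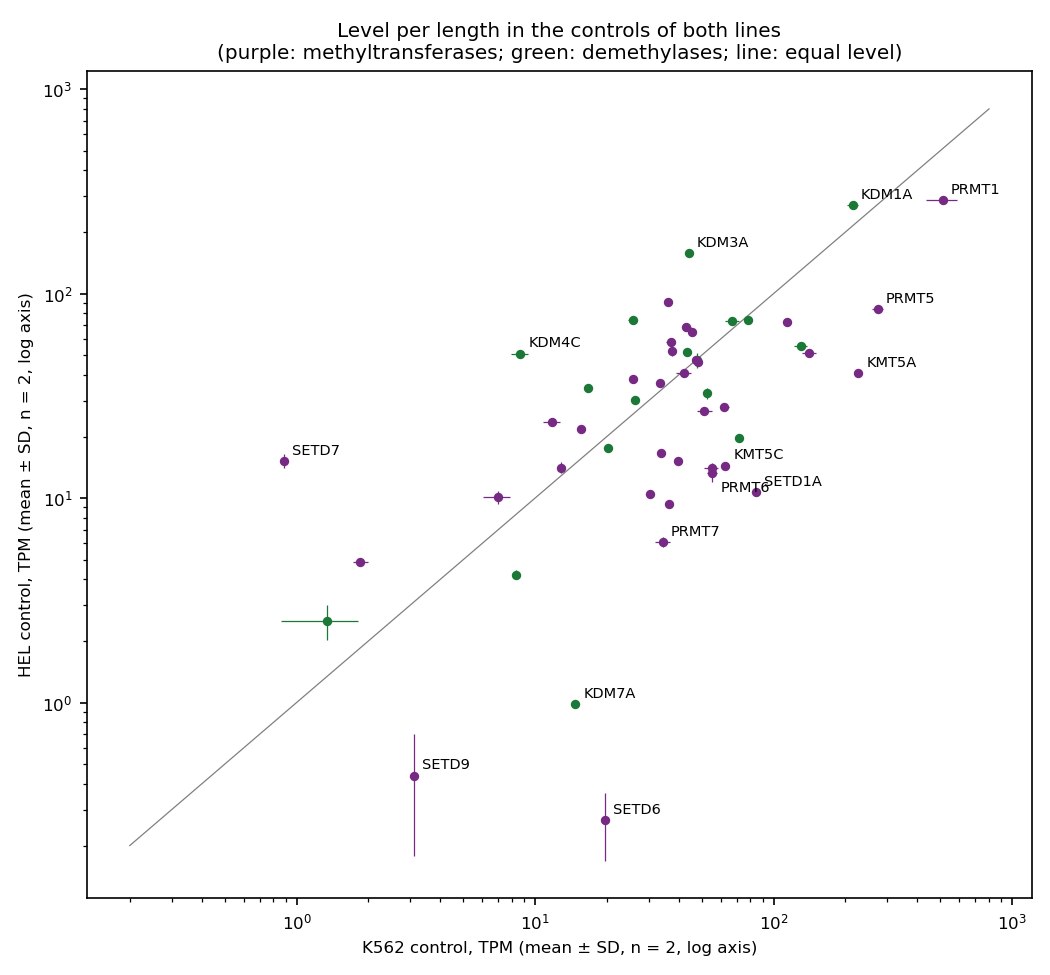
Level of each member with counts in both lines, in TPM, as the mean of 2 control libraries of K562 (x) and of HEL (y), both on log axes with SD bars. KDM7A, SETD6 and SETD9 lie far below the line of equal level, at under 1 TPM in HEL, while SETD7, KDM4C and KDM3A lie above it.

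After loss of DOT1L or ENL the share of members that changed lay near the share of all genes, and the changes were mostly small. All tests were edgeR quasi-likelihood fits over every gene that passed the count filter, with Benjamini-Hochberg adjustment over all of them and a threshold of adjusted p 0.05. In the DOT1L KO, 26 of the 52 tested members passed, against 51.1% of all 14301 genes tested. Of these, 12 rose (26.9% of all genes rose) and 14 fell (24.2% of all genes fell). In the ENL KO, 18 of 52 passed, against 41% of all genes. Here 6 rose (18.8% of all genes) and 12 fell (22.2% of all genes). This count depends on the 2 control libraries: it was 8 without K562 control 1 and 9 without K562 control 2, and with upper-quartile scaling the split was 2 higher and 14 lower. The DOT1L KO and ENL KO comparisons share these control libraries, so their values are set side by side without a measure of overlap.

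In HEL the DOT1L KD changed 31 of the 50 tested members, against 55% of 12635 genes tested. Of these 18 rose (27% of all genes) and 13 fell (28% of all genes). Scaling moved this split, to 23 higher and 5 lower with upper-quartile factors and to 20 and 9 with library totals alone, and DESeq2 called 15 members (11 higher, 4 lower). The HEL replicates differed by little more than sampling noise (chi-square per degree of freedom 1.46 and 1.31, against 4.08 to 9.71 for K562 pairs), and small changes pass the edgeR test there. Over the tested members the median absolute log2 fold change was 0.206 in the DOT1L KO, 0.136 in the ENL KO and 0.164 in the HEL KD, against 0.291, 0.252 and 0.245 over all genes. The signed median of the members was 0.0154, -0.0301 and 0.0469, against 0.011, 0.00282 and 0.0129 over all genes. Only SETD7 changed by 1 or more on the log2 scale and passed, in both K562 knockouts. No member did in HEL. Of all genes tested, 15.8% did so in the DOT1L KO, 11% in the ENL KO and 5.84% in the HEL KD.

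**Figure D2:**
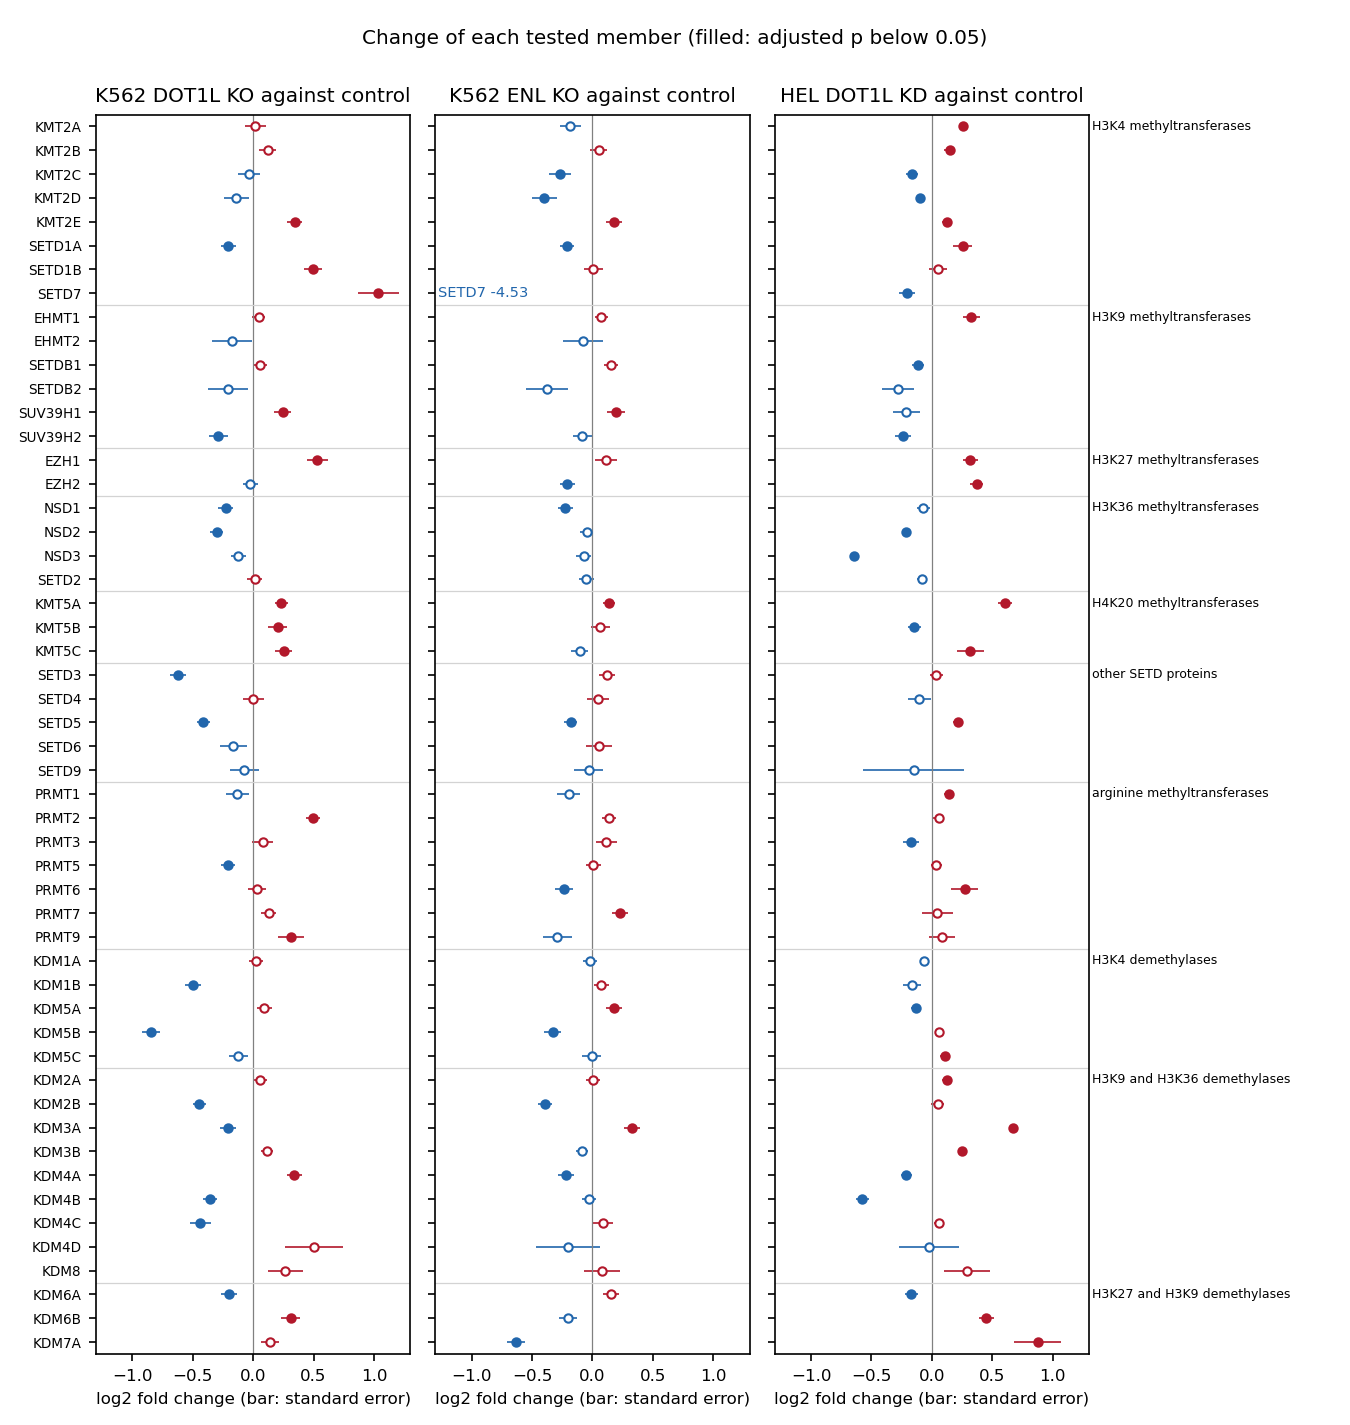
Log2 fold change of each tested member against its control in the DOT1L KO and ENL KO of K562 (52 members) and the DOT1L KD of HEL (50 members), with standard errors as bars and filled points where adjusted p was below 0.05. Most points lie between -0.5 and 0.5, and the SETD7 value in the ENL KO, -4.53, is written in place of a point because it lies beyond the axis.

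Among the enzymes that write H3K4 methylation, SETD7 gave the largest changes, in opposite directions in the 2 knockouts. SETD7 (chr4:139495935-139556769, minus strand, GRCh38) was at 2.98 and 2.98 CPM (counts scaled by library size and TMM factor) in the K562 control libraries, at 6.27, 5.61 and 6.53 in DOT1L KO and at 0.0483, 0.195 and 0.13 in ENL KO. No library of one group reached the values of another. In raw counts this was 64 and 63 fragments in control, 138, 166 and 138 in DOT1L KO, and 1, 4 and 2 in ENL KO. In the DOT1L KO SETD7 rose by 1.04 ± 0.17 (log2 fold change ± SE, adjusted p = 0.00018). In the ENL KO it fell (adjusted p = 2.01e-07), and since its counts there are near 0, the pooled ratio is the safer size: 24.2-fold lower than control, with an exact 95% interval of 11.4 to 61.3 that covers counting error only. In HEL, where SETD7 was abundant, it was at 49.3 and 55.4 CPM in control and 44.9 and 46 in DOT1L KD, a fall of 0.20 ± 0.07 (adjusted p = 0.00667). That HEL call was lost in 5 of 11 alternatives, DESeq2 and the fit without HEL control 2 among them.

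The KMT2 genes went different ways: KMT2C and KMT2D fell in the ENL KO and KMT2E rose in all 3 comparisons with a control. The H3K4 writer group, KMT2E included, had 8 genes tested. In the DOT1L KO 3 rose and 1 fell (26.9% and 24.2% of all genes). In the ENL KO 1 rose and 4 fell (18.8% and 22.2%), and in the HEL KD 4 rose and 3 fell (27% and 28%). KMT2D, which with KMT2C marks enhancers with H3K4 monomethylation, was at 486 and 456 CPM in K562 control, 470, 358 and 455 in DOT1L KO and 326, 396 and 350 in ENL KO. All ENL KO libraries lay below both controls, while DOT1L KO libraries overlapped them. KMT2D fell by 0.40 ± 0.10 in the ENL KO (adjusted p = 0.0069; lost without K562 control 1) and had a log2 fold change of -0.14 ± 0.10 in the DOT1L KO (adjusted p = 0.274). Tested directly, DOT1L KO minus ENL KO was 0.26 ± 0.09 (adjusted p = 0.0273), with overlapping libraries, and this call was lost when any of 4 single knockout libraries was left out. KMT2C fell by 0.27 ± 0.09 in the ENL KO (adjusted p = 0.0294), a call lost without either control library or without ENL KO 1. KMT2A, the MLL gene that is fused in some leukaemias, did not pass in either knockout and rose in HEL, from 449 and 457 to 556 and 524 CPM (0.26 ± 0.03, adjusted p = 5.43e-10). KMT2E, a family member with little known catalytic activity, rose by 0.34 ± 0.06 in DOT1L KO, 0.18 ± 0.06 in ENL KO and 0.13 ± 0.04 in HEL (adjusted p = 0.000515, 0.0414 and 0.0136). The ENL KO call was lost in 8 of 16 alternatives and the HEL call in 4 of 11.

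The 2 SETD1 paralogs, catalytic subunits of the Set1 COMPASS complexes, parted in the DOT1L KO. SETD1B rose from 96.9 and 100 CPM in control to 144, 124 and 149 (0.49 ± 0.08, adjusted p = 0.000132). SETD1A fell from 212 and 212 to 188, 178 and 186 CPM (-0.21 ± 0.06, adjusted p = 0.011), and it was also lower in the ENL KO at 187, 192 and 170 CPM (-0.21 ± 0.06, adjusted p = 0.012). Both SETD1A calls were lost when either control library was left out. SETD1B had a log2 fold change of 0.01 ± 0.08 in the ENL KO, and its difference between the knockouts passed (0.49 ± 0.07, adjusted p = 3.57e-05). Their shared and accessory partners were read from a list of 13 COMPASS genes. In each knockout 3 were higher and 2 lower (26.9% and 24.2% of all genes in DOT1L KO, 18.8% and 22.2% in ENL KO). In HEL 5 were higher and 2 lower (27% and 28%). The list medians were 0.0842 (DOT1L KO), 0.0269 (ENL KO) and 0.083 (HEL). DPY30, a core subunit, fell in the DOT1L KO and in HEL (-0.34 ± 0.09 and -0.40 ± 0.08; adjusted p = 0.00449 and 1.62e-05), and PAXIP1, a KMT2C and KMT2D partner, rose in both (0.44 ± 0.06 and 0.35 ± 0.08; adjusted p = 6.48e-05 and 0.000358).

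On the removing side of H3K4 methylation, KDM5B showed the largest fall of any member in the DOT1L KO. KDM5B (chr1:202725185-202809470, minus strand), which removes H3K4 di- and trimethylation, was at 245 and 268 CPM in K562 control, 133, 148 and 148 in DOT1L KO and 188, 203 and 220 in ENL KO. The 3 groups did not overlap, and the ENL KO libraries lay between the others. It fell by 0.84 ± 0.07 in the DOT1L KO (adjusted p = 5.2e-07) and by 0.33 ± 0.07 in the ENL KO (adjusted p = 0.00275), and the direct difference was -0.51 ± 0.07 (adjusted p = 1.72e-05). The ENL KO call was lost without K562 control 2. In HEL it was at 281 and 290 CPM in control and 298 and 296 in DOT1L KD, with no call (0.06 ± 0.03, adjusted p = 0.14). KDM1B (LSD2), the paralog of LSD1 found in gene bodies, fell from 127 and 128 to 86.9, 92.9 and 90.8 CPM in the DOT1L KO (-0.50 ± 0.06, adjusted p = 2.09e-05) and was at 125, 136 and 142 in the ENL KO, around the controls. KDM1A, at 252 and 271 CPM in K562 control, passed in no comparison, with log2 fold changes of 0.02, -0.02 and -0.06 and overlapping libraries each time. Of 5 H3K4 demethylases, 2 fell (KDM1B and KDM5B) and none rose in the DOT1L KO, where 24.2% of all genes fell and 26.9% rose. In the ENL KO 1 rose and 1 fell (18.8% and 22.2%), and in the HEL KD 1 rose and 1 fell (27% and 28%).

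Partners of KDM1A were read from a list of 13 CoREST-related genes. Of these, 4 rose and 4 fell in the DOT1L KO, where 51.1% of all genes passed. With ENL lost 5 rose and 4 fell (41% of all genes passed), and in HEL 4 rose and 3 fell (55% of all genes). RCOR1, the scaffold of the complex, fell in all 3 (-0.36 ± 0.06, -0.21 ± 0.06 and -0.56 ± 0.04; adjusted p = 0.000121, 0.00769 and 6.22e-17). GFI1B, the erythroid transcription factor that recruits LSD1, rose by 0.49 ± 0.05 in the DOT1L KO and by 1.04 ± 0.05 in the ENL KO (adjusted p = 5.4e-06 and 6.01e-09), and its HEL value was -0.07 ± 0.04 (adjusted p = 0.185). Its paralog GFI1 fell in both knockouts (-0.62 ± 0.20 and -2.59 ± 0.25, adjusted p = 0.0168 and 2.73e-06). GFI1 was scarce, at 2.35 and 2.15 TPM in K562 control. It was at 1.45, 1.56 and 1.4 TPM in DOT1L KO and 0.513, 0.225 and 0.346 in ENL KO. GFI1B was at 113 and 111 TPM in K562 control.

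**Figure D3:**
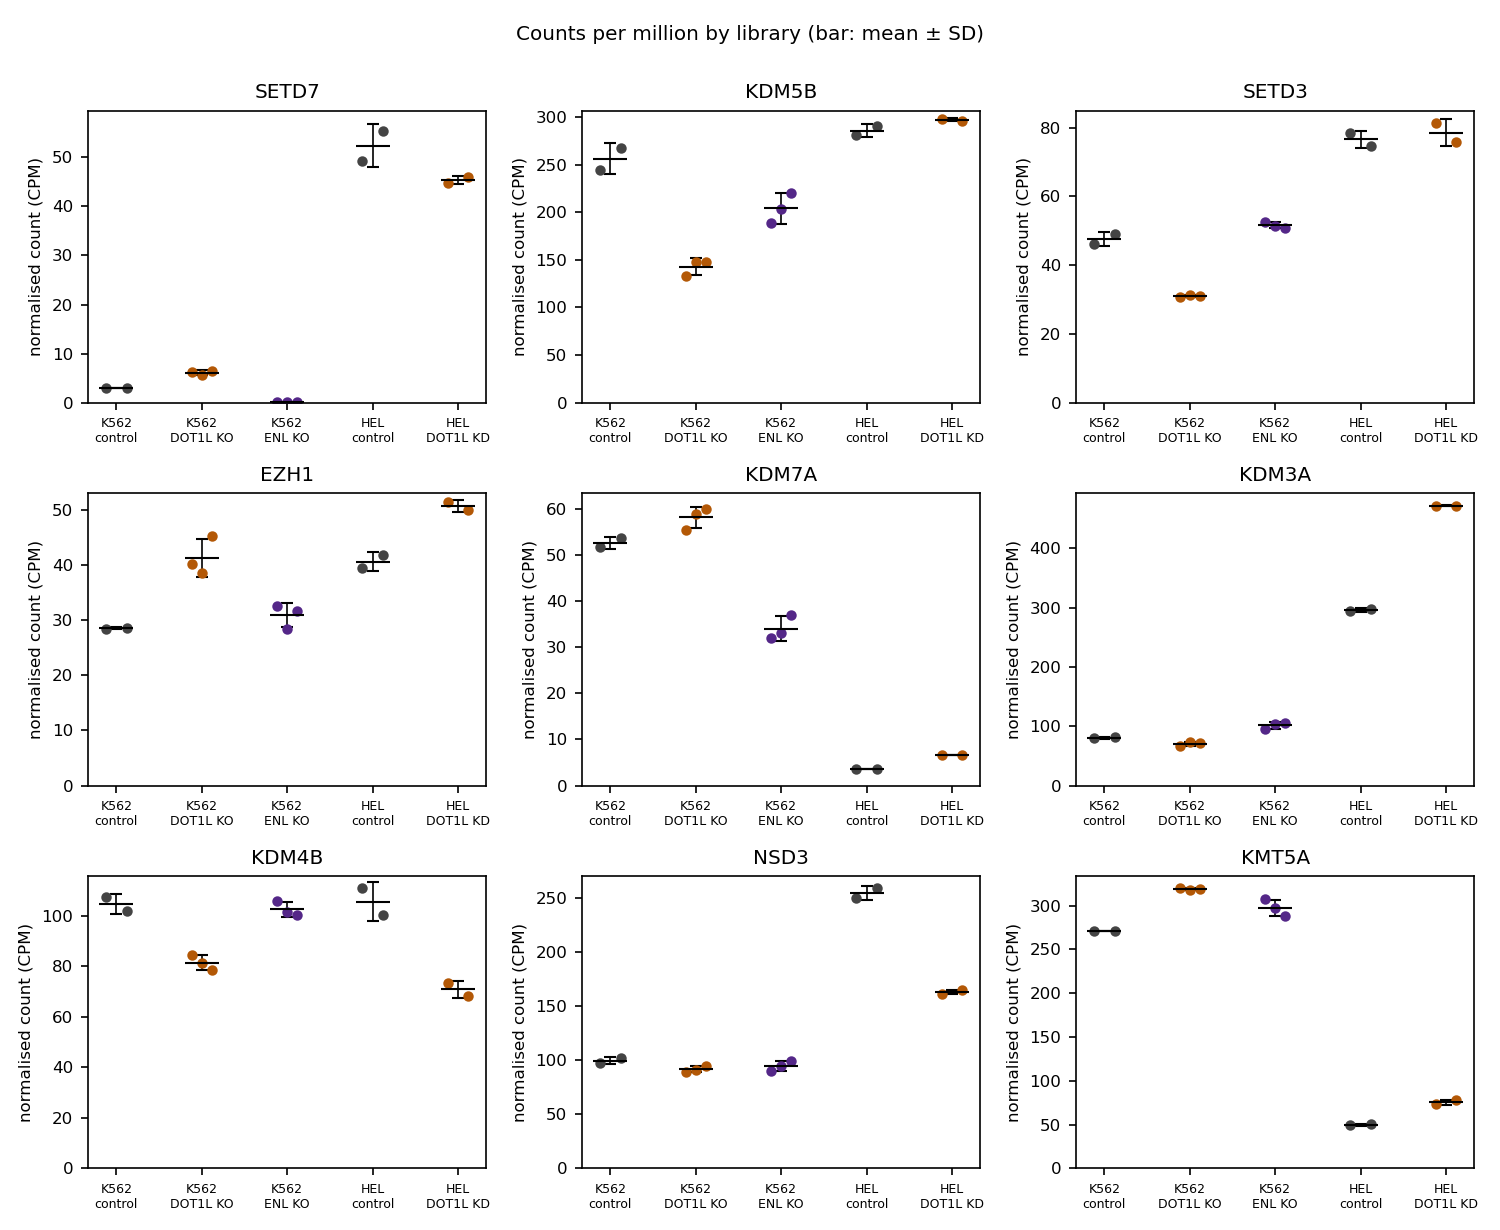
Normalised counts (CPM) of 9 members in each library, with the mean and SD of each group (K562: 2 control, 3 DOT1L KO, 3 ENL KO; HEL: 2 control, 2 DOT1L KD); each panel has its own axis from 0. SETD7 is close to 0 in the ENL KO, KDM5B and SETD3 are lowest in the DOT1L KO, and KDM3A, KDM7A and KMT5A rise in the HEL KD while NSD3 falls.

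Among the H3K9 methyltransferases, log2 fold changes ranged from -0.29 to 0.24 in the DOT1L KO. With ENL lost the range was -0.38 to 0.20, and for the HEL KD it was -0.28 to 0.33. These ranges and the counts that follow include EHMT2 (tested in K562 only) and SETDB2, neither of which passed. Of 6 tested in K562, 1 rose and 1 fell in the DOT1L KO (26.9% and 24.2% of all genes). In the ENL KO 1 rose and none fell (18.8% and 22.2%). Of 5 tested in HEL, 1 rose and 2 fell (27% and 28%). SUV39H1, which writes the trimethyl mark of pericentric heterochromatin, was at 62.5 and 68.5 CPM in K562 control, 81, 77.8 and 73.8 in DOT1L KO and 79.3, 75.4 and 70.1 in ENL KO. It rose by 0.24 ± 0.07 in the DOT1L KO (adjusted p = 0.0119), a call lost without K562 control 1, and by 0.20 ± 0.07 in the ENL KO (adjusted p = 0.0448), a call lost in 8 of 16 alternatives. EHMT1 (GLP), a dimethyltransferase of euchromatin, rose in HEL from 35.3 and 35.4 to 43.3 and 45.4 CPM (0.33 ± 0.07, adjusted p = 8.77e-05), and its values in the K562 knockouts were 0.04 and 0.07. SETDB2 shares 41.3% of its exonic bases with the readthrough gene SETDB2-PHF11 and is not used further. Among 9 tested partners of this mark, 2 rose and 1 fell in the DOT1L KO, where 51.1% of all genes passed. In the ENL KO 1 rose and 1 fell (41% of all genes passed), and in HEL 2 rose and 3 fell (55%).

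Of 9 tested demethylases of H3K9 and H3K36, 1 rose and 4 fell in the DOT1L KO, against 26.9% and 24.2% of all genes. In the ENL KO 1 rose and 2 fell (18.8% and 22.2%), and in HEL 3 rose and 2 fell (27% and 28%). KDM3A (chr2:86441371-86492716, plus strand), a hypoxia-inducible demethylase of mono- and dimethylated H3K9, was at 79.6 and 81.9 CPM in K562 control, 66.4, 72.6 and 70.9 in DOT1L KO and 95.3, 103 and 106 in ENL KO. In HEL it was at 294 and 298 CPM in control and 472 and 471 in DOT1L KD. No groups overlapped within a line, and DOT1L loss was followed by lower values in K562 and higher values in HEL. The log2 fold changes were -0.21 ± 0.07 in the DOT1L KO (adjusted p = 0.0176; lost in 4 of 16 alternatives, among them without either control library), 0.33 ± 0.07 in the ENL KO (adjusted p = 0.00125) and 0.67 ± 0.03 in HEL (adjusted p = 5.71e-25). Its paralog KDM3B rose in HEL and passed in neither knockout. The KDM3A to KDM3B ratio of TPM was 0.547 and 0.582 in K562 control, 0.417 to 0.481 in DOT1L KO, 0.706 to 0.783 in ENL KO, 2.13 and 2.14 in HEL control and 2.88 and 2.82 in HEL KD.

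Within the KDM4 family, which removes trimethylation from H3K9 and H3K36, members went different ways. KDM4A rose in the DOT1L KO from 43.8 and 46.4 to 57.9, 57.4 and 56.1 CPM (0.34 ± 0.06, adjusted p = 0.000575) and fell in the ENL KO to 38.7 in each of 3 libraries (-0.22 ± 0.07, adjusted p = 0.0151; lost without K562 control 2). KDM4C fell in the DOT1L KO from 24.8 and 27.7 to 20, 18.8 and 19.4 CPM (-0.44 ± 0.09, adjusted p = 0.000767) and was at 28.4, 28.8 and 26 in the ENL KO, overlapping control. The KDM4C to KDM4A ratio of TPM was therefore lowest in DOT1L KO, at 0.2, 0.189 and 0.201, against 0.328 and 0.346 in control and 0.425, 0.431 and 0.39 in ENL KO, with no overlap between groups. KDM4B (chr19:4969113-5153597, plus strand) fell with DOT1L loss in both lines: from 107 and 102 to 84.5, 81.5 and 78.6 CPM in K562 (-0.36 ± 0.06, adjusted p = 0.000173), and from 111 and 100 to 73.3 and 68.5 in HEL (-0.58 ± 0.05, adjusted p = 7.43e-14). In the ENL KO it was at 105.9, 101.5 and 100.3 CPM, overlapping control (-0.03 ± 0.06, adjusted p = 0.732). KDM2B, an H3K36 demethylase that brings a variant Polycomb complex to CpG islands, fell by similar amounts in both knockouts, from 119 and 117 to 86.7, 89.7 and 84.2 CPM in DOT1L KO and 92.3, 88 and 90 in ENL KO (-0.44 ± 0.06 and -0.39 ± 0.06; adjusted p = 1.64e-05 and 7.89e-05). Its direct difference between the knockouts was -0.05 ± 0.05 (adjusted p = 0.392). KDM4D had only 22 to 61 counts in K562 libraries, and its values have wide errors (SE 0.24 for its DOT1L KO value and 0.27 for its ENL KO value).

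For H3K27 methylation, EZH1 rose with DOT1L loss in both lines, and EZH2 rose in HEL. EZH1 (chr17:42700275-42745096, minus strand) was at 28.5 and 28.7 CPM in K562 control, 40.2, 38.6 and 45.2 in DOT1L KO and 32.5, 28.4 and 31.7 in ENL KO. All DOT1L KO libraries were above the others, and ENL KO overlapped control. It rose by 0.53 ± 0.09 in the DOT1L KO (adjusted p = 0.000235) and, from 39.5 and 41.8 to 51.5 and 49.9 CPM, by 0.32 ± 0.07 in HEL (adjusted p = 4.41e-05). EZH2 (chr7:148807372-148884349, minus strand) was at 160 and 175 CPM in K562 control and 157, 169 and 167 in DOT1L KO, with no call (-0.02 ± 0.06, adjusted p = 0.774). It was at 138, 150 and 147 CPM in ENL KO (-0.21 ± 0.06, adjusted p = 0.0171; lost without K562 control 2 or without ENL KO 1). In HEL EZH2 rose from 59.8 and 64 to 80.2 and 80.1 CPM (0.37 ± 0.05, adjusted p = 4.45e-08), and the difference of the EZH2 response between lines passed (0.41 ± 0.09, adjusted p = 0.000588), while that of EZH1 did not (-0.19 ± 0.11, adjusted p = 0.203).

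Per length, EZH2 exceeded EZH1 in every library. The EZH1 to EZH2 ratio of TPM was 0.115 and 0.106 in K562 control, 0.166, 0.148 and 0.175 in DOT1L KO, and 0.153, 0.122 and 0.14 in ENL KO. Both knockouts lay above control; EZH1 had risen in the DOT1L KO and EZH2 had fallen in the ENL KO. In HEL the ratio was 0.427 and 0.423 in control and 0.416 and 0.404 in DOT1L KD, and both genes rose there. The other PRC2 subunits, a list of 10, fell in 5 cases and rose in none in the DOT1L KO (median -0.2), where 24.2% of all genes fell and 51.1% passed in either direction. The 5 were RBBP7, MTF2, PHF1, JARID2 and PHF19 (-0.38, -0.40, -0.35, -0.24 and -0.16). In the ENL KO 1 rose (SUZ12, 0.28 ± 0.10, adjusted p = 0.0322) and 2 fell (JARID2 and MTF2), with a median of 0.0171. In HEL, with 9 tested, 2 rose and 4 fell (median -0.0356). Of all genes, 18.8% rose and 22.2% fell in the ENL KO, and 27% rose and 28% fell in HEL. AEBP2, an accessory subunit that stabilises PRC2, fell by 1.07 ± 0.07 there (adjusted p = 2.51e-18), and the core subunits SUZ12 and EED fell by 0.41 ± 0.04 and 0.22 ± 0.06 (adjusted p = 7.04e-12 and 0.00124).

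**Figure D4:**
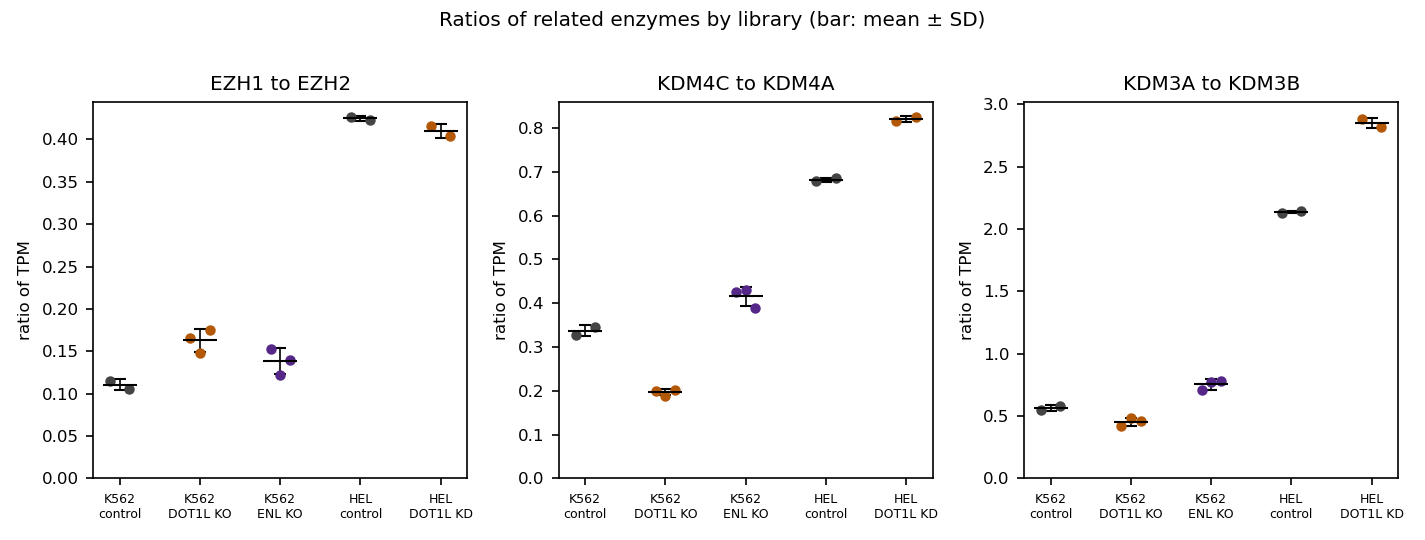
Ratio of TPM between related enzymes in each library, with group mean and SD, for EZH1 to EZH2, KDM4C to KDM4A and KDM3A to KDM3B; each panel has its own axis from 0. The EZH1 to EZH2 ratio is 0.106 to 0.115 in K562 control and 0.148 to 0.175 in DOT1L KO, and the KDM4C to KDM4A ratio is lowest in DOT1L KO.

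KDM7A and KDM6B, which remove the H3K27 mark, rose in the HEL KD. KDM7A (chr7:140084746-140176941, minus strand) was at 51.8 and 53.7 CPM in K562 control, 55.6, 59 and 60.2 in DOT1L KO and 32, 33 and 37.1 in ENL KO. It fell by 0.63 ± 0.08 in the ENL KO (adjusted p = 1.89e-05), while its DOT1L KO value was 0.14 ± 0.07 (adjusted p = 0.129), and the direct difference was 0.78 ± 0.07 (adjusted p = 3.91e-07). In HEL it was scarce, with 44 and 46 reads in control and 83 and 81 in DOT1L KD, and it rose by 0.88 ± 0.19 (adjusted p = 0.000124). KDM6B (JMJD3), an inducible H3K27 demethylase, rose with DOT1L loss in both lines, from 53.1 and 52.7 to 69.5, 63.1 and 64.2 CPM in K562 (0.31 ± 0.08, adjusted p = 0.00434) and from 47.7 and 46.2 to 62.2 and 66.3 in HEL (0.45 ± 0.06, adjusted p = 6.68e-09). In the ENL KO it was at 45.6, 49.9 and 42.1 CPM, below both controls without passing (-0.20 ± 0.08, adjusted p = 0.0529), and the 2 knockouts differed by 0.51 ± 0.07 (adjusted p = 2.49e-05). KDM6A, on the X chromosome, fell with DOT1L loss in both lines.

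The H3K36 methyltransferases fell or did not pass in all 3 comparisons, and none rose. In the DOT1L KO 2 of 4 fell (NSD1 and NSD2), in the ENL KO 1 (NSD1) and in HEL 2 (NSD2 and NSD3). Of all genes, 24.2%, 22.2% and 28% fell in these comparisons, and 26.9%, 18.8% and 27% rose. NSD3 was at 97.1 and 102 CPM in K562 control, 89.1, 90.7 and 94.6 in DOT1L KO and 90.2, 94.9 and 99.2 in ENL KO, without a call. In HEL it fell from 250 and 260 to 162 and 165 CPM (-0.64 ± 0.04, adjusted p = 3.45e-21), the largest fall of a member there. NSD1, which dimethylates H3K36 between genes, was at 205 and 202 CPM in K562 control, 187, 166 and 169 in DOT1L KO and 167, 177 and 178 in ENL KO (-0.23 ± 0.06 in each; adjusted p = 0.00758 and 0.0103). The first call was lost without K562 control 1 and the second without either control library. SETD2, the enzyme that trimethylates H3K36 behind elongating polymerase, did not pass anywhere, with log2 fold changes of 0.01, -0.05 and -0.08 on levels of 145 to 168 CPM.

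All 3 H4K20 methyltransferases rose in the DOT1L KO, where 26.9% of all genes rose, and the KMT5B and KMT5C calls were each lost in some alternatives. KMT5A (SET8, chr12:123384116-123409353, plus strand), the enzyme that sets H4K20 monomethylation during the cell cycle, was at 271 and 271 CPM in K562 control, 320, 318 and 319 in DOT1L KO and 307, 297 and 289 in ENL KO. In HEL it rose from 48.9 and 50.4 to 73.6 and 77.7 CPM. Its log2 fold changes were 0.23 ± 0.05, 0.13 ± 0.05 and 0.61 ± 0.06 (adjusted p = 0.00147, 0.045 and 2.41e-13), and the ENL KO call was lost in 11 of 16 alternatives. KMT5C, which adds the further methyl groups, rose from 56.6 and 55.5 to 69.3, 62.5 and 68.8 CPM in the DOT1L KO (0.25 ± 0.07, adjusted p = 0.00753; lost without K562 control 2) and from 12.9 and 13.4 to 16.4 and 16.4 in HEL (0.32 ± 0.11, adjusted p = 0.0145; lost with DESeq2 and in 3 leave-one-out fits). With ENL lost it was at 54, 52.5 and 49.6 CPM, with a value of -0.11 ± 0.07 (adjusted p = 0.25). KMT5B rose by 0.20 ± 0.08 in the DOT1L KO (adjusted p = 0.0398) and fell by 0.15 ± 0.06 in HEL (adjusted p = 0.0226), calls lost in 6 of 16 and 7 of 11 alternatives.

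Among the remaining SETD proteins and the arginine methyltransferases, SETD3 was the clearest. SETD3 (chr14:99397746-99480889, minus strand), known as the histidine methyltransferase of actin, was at 46.3 and 49 CPM in K562 control, 30.6, 31.2 and 31 in DOT1L KO and 52.7, 51.3 and 50.9 in ENL KO. Its DOT1L KO libraries were lowest and nearly alike. It fell by 0.62 ± 0.07 in the DOT1L KO (adjusted p = 3.81e-06), did not pass in the ENL KO (0.12 ± 0.07, adjusted p = 0.18), and the knockouts differed by -0.74 ± 0.06 (adjusted p = 1.56e-07). In HEL it was at 78.3 and 74.8 CPM in control and 81.2 and 75.7 in DOT1L KD, overlapping. SETD5, which associates with corepressor complexes, fell in the DOT1L KO from 316 and 321 to 242, 232 and 244 CPM (-0.41 ± 0.05, adjusted p = 1.64e-05) and rose in HEL from 202 and 213 to 245 and 237 (0.21 ± 0.04, adjusted p = 1.73e-06). Its smaller fall in the ENL KO, to 272, 288 and 282 CPM (-0.18 ± 0.05, adjusted p = 0.0122), was lost without either control library. Of 7 tested PRMT genes, 2 rose and 1 fell in the DOT1L KO (26.9% and 24.2% of all genes). In the ENL KO 1 rose and 1 fell (18.8% and 22.2%), and in HEL 2 rose and 1 fell (27% and 28%). PRMT2 rose in the DOT1L KO from 81.4 and 78.1 to 115, 113 and 109 CPM (0.50 ± 0.06, adjusted p = 8.51e-06) and had a value of 0.14 ± 0.06 in the ENL KO (adjusted p = 0.0722). PRMT5 fell in the DOT1L KO from 289 and 269 to 248.9, 246.1 and 230 CPM (-0.21 ± 0.06, adjusted p = 0.0109), a call lost without K562 control 1. PRMT6, which methylates H3 at arginine 2, fell in the ENL KO from 59.3 and 55 to 47.1, 49.1 and 49.6 CPM (-0.24 ± 0.07, adjusted p = 0.0216), and PRMT7, a monomethyltransferase, rose from 56.2 and 61.8 to 67.4, 71.3 and 68.2 CPM (0.23 ± 0.07, adjusted p = 0.0133). Both calls were lost without K562 control 1 and without 1 of the ENL KO libraries. Of the comparisons with a control, PRMT1 passed only in HEL (0.14 ± 0.04, adjusted p = 0.00134; lost once the trend of counts with gene length was removed), and its K562 control libraries differed, at 346 and 280 CPM.

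The direct comparison of the knockouts used no control library. DOT1L KO and ENL KO differed in 28 of 52 members, against 60.2% of all genes tested. Of these, 17 were higher in DOT1L KO (31.8% of all genes) and 11 lower (28.3%). SETD7 differed most, followed by KDM7A, SETD3, KDM4D, PRMT9 and KDM1B. Both H3K27 methyltransferases and 6 of 8 genes of the H3K4 writer group (KMT2E included) were higher in DOT1L KO. None of either group was lower. In the H3K4 writer group, the KMT2A, KMT2C, KMT2D and KMT2E calls were lost in 3, 2, 4 and 2 of 16 alternatives. Each loss came without a single knockout library, and the KMT2A and KMT2D libraries overlapped. KDM3A was lower in DOT1L KO than in ENL KO (-0.54 ± 0.06, adjusted p = 3.12e-06) and KDM4A higher (0.56 ± 0.06, adjusted p = 1.76e-06). PRMT9 was higher, at 13.8, 15.3 and 13.5 against 9.03, 9.05 and 10.1 CPM (0.60 ± 0.10, adjusted p = 0.00018).

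Whether DOT1L loss acted alike in both lines was tested as an interaction over the HEL libraries and the K562 control and DOT1L KO libraries. Knockdown against knockout and read against fragment counting go with the line and cannot be told apart from it. The responses differed for 24 of 52 members, against 38.9% of 15367 genes tested. In 16 the HEL change was the more positive (19.8% of all genes) and in 8 the more negative (19.1%). Over all genes tested, 51.1% passed in the K562 DOT1L KO and 55% in the HEL KD. The share of all genes passing in both was not counted, so the members below are a list without a background. Of the 50 members tested in both tables, 15 passed in both lines: 5 rose in both (EZH1, KDM6B, KMT2E, KMT5A and KMT5C), 4 fell in both (KDM4B, KDM6A, NSD2 and SUV39H2) and 6 went opposite ways with a passing interaction (KDM3A, KDM4A, KMT5B, SETD1A, SETD5 and SETD7). Of these 6, KDM4A and SETD5 kept both calls in every alternative run. KDM3A kept its HEL call and SETD7 its K562 call in every alternative run, while the other call of each, and both calls of KMT5B and SETD1A, were lost in some. The widest gaps were SETD7 (-1.22 ± 0.17, HEL minus K562, adjusted p = 4.84e-06), KDM5B (0.92 ± 0.08, adjusted p = 8.85e-09) and KDM3A (0.89 ± 0.07, adjusted p = 3.49e-09).

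**Figure D5:**
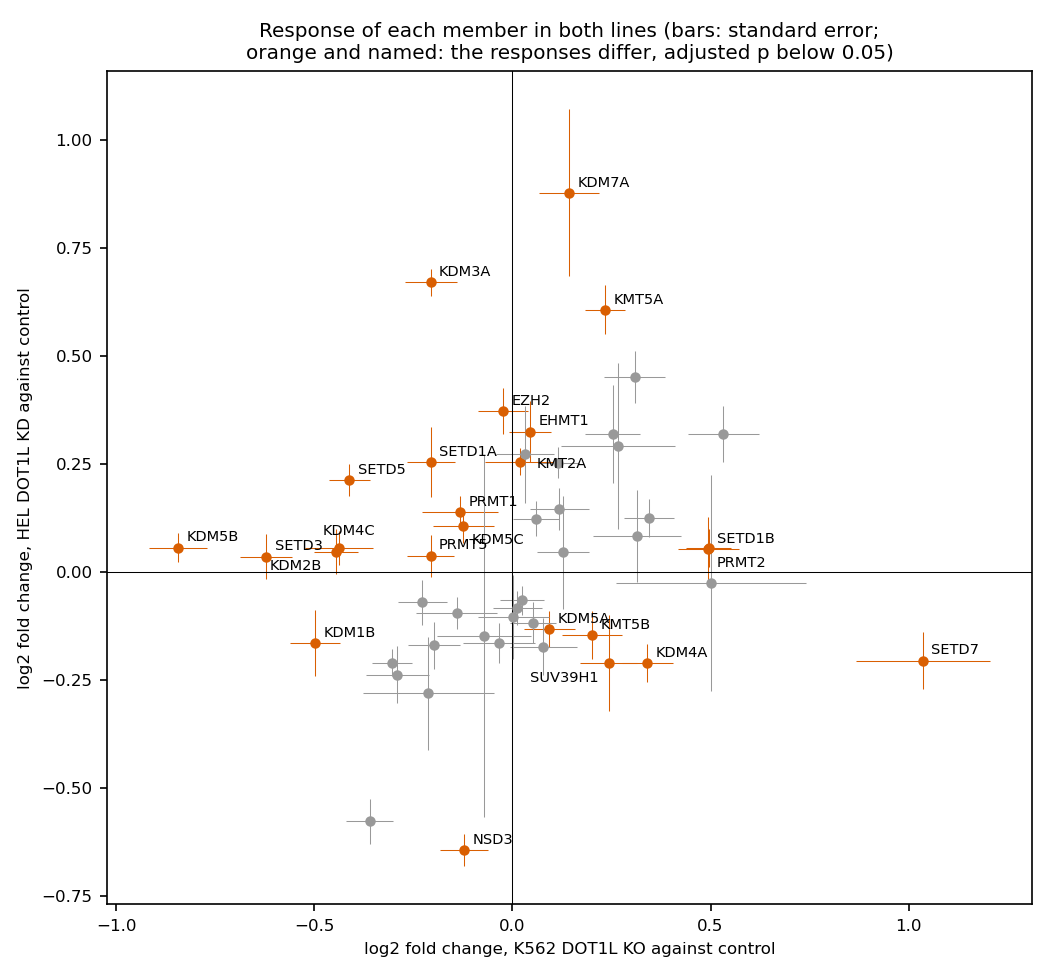
Log2 fold change of each of the 50 members tested in both tables after DOT1L loss, in K562 DOT1L KO (x) and HEL DOT1L KD (y), with standard errors as bars; orange points have a difference between lines with adjusted p below 0.05. KDM5B and SETD3 lie far to the left at about 0 in HEL, KDM3A and NSD3 lie far from 0 in HEL and near it in K562, and SETD7 lies alone at the right.

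Histone methylation enzymes whose symbols fall outside the rule were read from a separate list. Of 16 tested in K562, 2 rose and 6 fell in the DOT1L KO (26.9% and 24.2% of all genes). In the ENL KO 2 rose and 3 fell (18.8% and 22.2%). Of 15 tested in HEL, 4 rose and 3 fell (27% and 28%). JMJD1C, a relative of KDM3A and KDM3B, fell by 0.74 ± 0.07 in the DOT1L KO (adjusted p = 1.36e-06) and by 0.16 ± 0.04 in HEL (adjusted p = 0.00133). CARM1, the arginine methyltransferase also called PRMT4, fell in all 3 comparisons (-0.30 ± 0.07, -0.49 ± 0.07 and -0.23 ± 0.06; adjusted p = 0.00171, 5.15e-05 and 0.00067). MECOM, a PRDM-family leukaemia gene, fell in both knockouts (-0.31 ± 0.10 and -0.94 ± 0.10; adjusted p = 0.0166 and 5.73e-06) and rose in HEL (0.48 ± 0.08, adjusted p = 2.21e-06). Since all groups are bulk cultures, fewer cells expressing a gene and less RNA of it per cell cannot be told apart in any of these values.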

How the data were processed

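The authors deposited raw counts per gene, fragments for K562 and reads for HEL. The submitters' processing notes name fastp 0.13.1, HISAT2 2.1.0 and featureCounts 1.6.1, with builds hg38 and hg19; all 54 members lie at their RefSeq GRCh38.p14 places in the deposited tables. Whether strand was used in counting is not given in the sources used here. Members and lists were chosen with earlier results of these data known. Of 74 samples in the series, the 13 RNA-seq samples were used. Genes passed edgeR's filterByExpr (minimum count 10, minimum total 15), and the counts were scaled by TMM and tested by edgeR 4.0.16 quasi-likelihood fits (R 4.3.3), with 1 fit for all 8 distinct K562 libraries, 1 for the 4 HEL libraries and 1 with an interaction for 9 libraries, with Benjamini-Hochberg adjustment over all genes tested. The biological coefficient of variation was 6.34% in K562 and 1.83% in HEL. A count of 0 allows up to 3 counts, or 0.103 to 0.247 CPM by library. Intervals of count ratios are exact 95% intervals and cover counting error only. Members were named by a rule: the 10 largest passing changes with no overlap in each comparison with a control and the 10 largest between the knockouts, those that passed in all 3 comparisons or in opposite directions in the 2 lines, the 3 highest and lowest levels in each control, and 7 set by name, 39 in all. Alternatives were RLE, upper-quartile and no scaling factors, no filter, removal of the trend with gene length, DESeq2 1.42.0, only the 2 groups compared, a replicate block and leaving out each library. A further marker of the erythroid list is not reported here.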

Additional observations from a re-analysis of the deposited data

Results flagged for a closer look

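Of the 24 members whose interaction passed, the 22 named by the rule are given here. They responded differently to DOT1L loss in HEL and K562 by the interaction test (edgeR quasi-likelihood, adjusted p below 0.05); each value is the HEL log2 fold change minus the K562 one. Line, depletion method and counting unit cannot be told apart here. In 7 of the 22 the HEL change was the more negative. SETD7 stood at -1.22, with a rise in K562 and a fall in HEL. KDM4A stood at -0.53 and NSD3 at -0.50. SUV39H1, SETD1B, PRMT2 and KMT5B stood at -0.44, -0.42, -0.42 and -0.33.

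In the others the HEL change was the more positive. The demethylases KDM5B, KDM3A and KDM7A stood at 0.92, 0.89 and 0.75, and KDM4C, KDM2B and KDM1B at 0.51, 0.51 and 0.35. Among methyltransferases and related proteins, SETD3 stood at 0.68 (0.675), SETD5 at 0.64, SETD1A at 0.48, EZH2 at 0.41 (0.415) and KMT5A at 0.39. Smaller gaps were those of EHMT1 at 0.30, PRMT1 at 0.29, PRMT5 at 0.26 and KMT2A at 0.25 (0.255). The PRMT1 call was lost in 9 of 15 alternatives and the KMT2A call in 6 of 15.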

How the results depend on the processing

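No call of a named member changed direction in any alternative. The count of members past the threshold moved by over 1.5 times in 3 settings: 15 in HEL with DESeq2 (31 with edgeR), and 8 and 9 in the ENL KO without K562 control 1 and without K562 control 2 (18 with both). Leaving out each library in turn gave 19 to 26 members in the DOT1L KO, 8 to 18 in the ENL KO, 24 to 28 between the knockouts, 21 to 30 in HEL and 18 to 27 for the interaction; where 1 control library was left, it was assumed to vary like the other groups. Calls of named members that held in every alternative were 15 of 23 in the DOT1L KO, 4 of 17 in the ENL KO, 19 of 24 between the knockouts, 12 of 21 in HEL and 16 of 22 for the interaction. No source ties same-numbered libraries to a shared batch. Correlations of their deviations were positive in all K562 pairs (0.0531 to 0.22, against -0.158 to 0.0881 for other numbers) and 0.000442 in HEL; not every K562 library correlated best with its own number, so the numbers were not taken as pairs. With a replicate block the counts were 29, 25, 31 and 31, and no named call was lost. Depth limits KDM4D, KDM7A in HEL and SETD7 in the ENL KO, which rest on few counts.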
